A study of Mus musculus with 18 samples.

Results

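miR-126a is a mouse microRNA (miRNA) whose hairpin lies within Egfl7, a gene of endothelial cells, and both of its mature arms, mmu-miR-126a-5p and mmu-miR-126a-3p (miR-126a-5p and miR-126a-3p below), were followed here through the derivation of embryonic stem cells (ESC) from the blastocyst. The 2 arms were taken by name from a table of 1390 mature miRNAs, and they were selected on their normalized counts in all 18 libraries, which were known when they were chosen, so their levels and arm ratio are given as a description with no test. Small RNA was sequenced from ESC, from outgrowths of the inner cell mass (ICM) 0.5, 1, 2, 3 and 5 days after seeding, and from freshly isolated ICM, with 2 libraries in each of 9 groups. All groups came from blastocysts of NMRI mice whose ICM was freed by immunosurgery, and the outgrowths and ESC grew on gelatin in N2B27 with leukemia inhibitory factor and R2i, a pair of inhibitors (PD0325901, which blocks MEK, and SB431542, which blocks TGF-β receptors). The ESC carry the codes P15, P4 and P2 in their descriptions, but their titles give passage 2 for P15, passage 15 for P4 and passage 4 for P2, so the codes are kept apart and no order of passage is read from them. The labels do not say how many embryos or lines stand behind a library.

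Most miRNA hairpins are cut into 2 strands, and one of them is usually kept by Argonaute, where bases 2 to 8 of the strand, its seed, find the target messages. In endothelial cells miR-126-3p represses Spred1 and Pik3r2, which restrain signalling from the VEGF receptor, and the loss of miR-126 in mice leaves vessels leaky. miR-126-5p, once written miR-126* as the lesser strand, represses Dlk1 in endothelial cells. The labels name no endothelial cells in any library, and Egfl7 messenger RNA was not measured in these small-RNA libraries.

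The hairpin and the 3p arm are shown first because the arm balance described further on concerns the strands of this one precursor. In RefSeq on GRCm38.p6 the hairpin of 73 bases lies on chromosome 2, at chr2:26591357-26591429 on the plus strand, and miR-126a-3p covers chr2:26591402-26591423. In GENCODE vM21 Egfl7 spans chr2:26580014-26593120 on the plus strand, and in transcript Egfl7-201 the hairpin is intronic, 293 bases after exon 7 and 234 bases before exon 8. Of 9 Egfl7 transcripts that span the hairpin, 1, a retained-intron transcript, has an exon over it. In the mature arm the capitals mark the seed, and in the hairpin they mark the 3p arm.
mmu-miR-126a-3p: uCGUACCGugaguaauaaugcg
microRNA 126a hairpin: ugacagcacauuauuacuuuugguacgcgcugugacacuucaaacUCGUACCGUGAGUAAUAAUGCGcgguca
RefSeq matched 1 of the 2 mature arms, miR-126a-3p. The seed CGUACCG is shared by 0 other of the 1679 mature RefSeq names searched, so no other miRNA enters as a seed relative. Mir126b is annotated on the opposite strand at chr2:26591363-26591420, and its 5p arm holds 19 bases, in capitals, that pair with miR-126a-3p. It is shown because both products come from the same bases of the intron; miR-126b was not analysed here.
mmu-miR-126b-5p: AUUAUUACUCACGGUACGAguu

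Depth differed between stages and bears on both arms. The values are counts that the authors normalized and rounded, with library totals of 602238 to 1265117. Before day 5, in 10 libraries, small values are multiples of a step worth 1 read, which gives an estimated 111000 to 370000 reads and a lowest listed value of 5 reads. The 8 libraries of day 5 and ESC show no such step and have an estimated 2320000 to 9060000 reads if their lowest value is also 5 reads. Where a value could lie under the listing limit of the shallowest library, differences are also given at a common floor of 27.2 normalized counts, to which lower values were raised.

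miR-126a-5p was higher in every ESC library than in every library of the other stages. The P15 libraries held 961 and 1043 normalized counts, the P4 libraries 508 and 303, and the P2 libraries 422 and 569, against 131 and 121 in ICM. The outgrowths held 106 and 85 on day 0.5, 94 and 205 on day 1, and 63 and 38 on day 2. They held 178 and 130 on day 3 and 119 and 186 on day 5. The lowest ESC library thus stood at 303 and the highest of the other 12 at 205, with no overlap. Of the 811 miRNAs tested, 2.96% had every ESC library above each of the 12 others, and since the arm was chosen with these values known nothing is read from its being one of them.

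The mean of miR-126a-5p was 634 ± 300 in ESC (SD, n = 6), against 126 ± 7.07 in ICM (SD, n = 2), a ratio of 5.03. On the scale of log2(normalized count + 1), with group means weighted equally, the difference was 2.19 for ESC minus ICM, 2.41 for ESC minus outgrowths and 1.95 for ESC minus day 5, the outgrowths sequenced as deeply as ESC. The outgrowths as a whole averaged 120.4 ± 54.9 (SD, n = 10), a log2 difference of -0.22 from ICM, and their range of 38 to 205 enclosed both ICM libraries. The pooled SD between replicates of this arm was 0.42 on the log2 scale. Library totals ran from 781162 to 1265117 in ESC and from 602238 to 967060 in the other stages, with overlap. With every library rescaled to the same total, the log2 differences of miR-126a-5p were 1.48, 1.97 and 1.5 in the same order. The median of all tested miRNAs then shifted by -0.45, -0.34 and -0.37. Rescaled, the ESC libraries again did not overlap the others. Among the miRNAs listed in its library, miR-126a-5p ranked from 72, in both P15 libraries, to 142 in ESC, against 207 of 428 and 241 of 712 in the ICM libraries. In bulk RNA, fewer cells that hold a miRNA and less of it per cell cannot be told apart.

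Within the outgrowths miR-126a-5p was lowest on day 2, where both libraries lay below all the other 16. Of the miRNAs tested, 0.74% had both day 2 libraries lowest. A miRNA listed at 0 in any other library could not have this pattern, and day 3 replicate 1 listed only 369 miRNAs above 0. That share therefore does not measure how rare a low day 2 is. Since the arm was chosen with these values known, nothing is read from its being among them. The values of 63 and 38 there stand for an estimated 19 and 11 reads, with 95% Poisson intervals of 37.8 to 98 and 19.1 to 68.6 normalized counts that cover counting error only. Both intervals overlap those of day 0.5 replicate 2, 54.4 to 126.3, and day 1 replicate 1, 60.1 to 139.6, and the first also overlaps those of day 0.5 replicate 1 and both ICM libraries. Overlap of such intervals does not by itself show that libraries agree within counting error, and no test between libraries was run. Ordered by mean, day 2 was followed by day 0.5, ICM, day 1, day 5, day 3, P4, P2 and P15. Neighbours from ICM to day 3 overlapped in range, as did P4 and P2, while every other pair of neighbours in that order was without overlap; with libraries rescaled, P4 and P2 were apart as well.

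**Figure D1:**
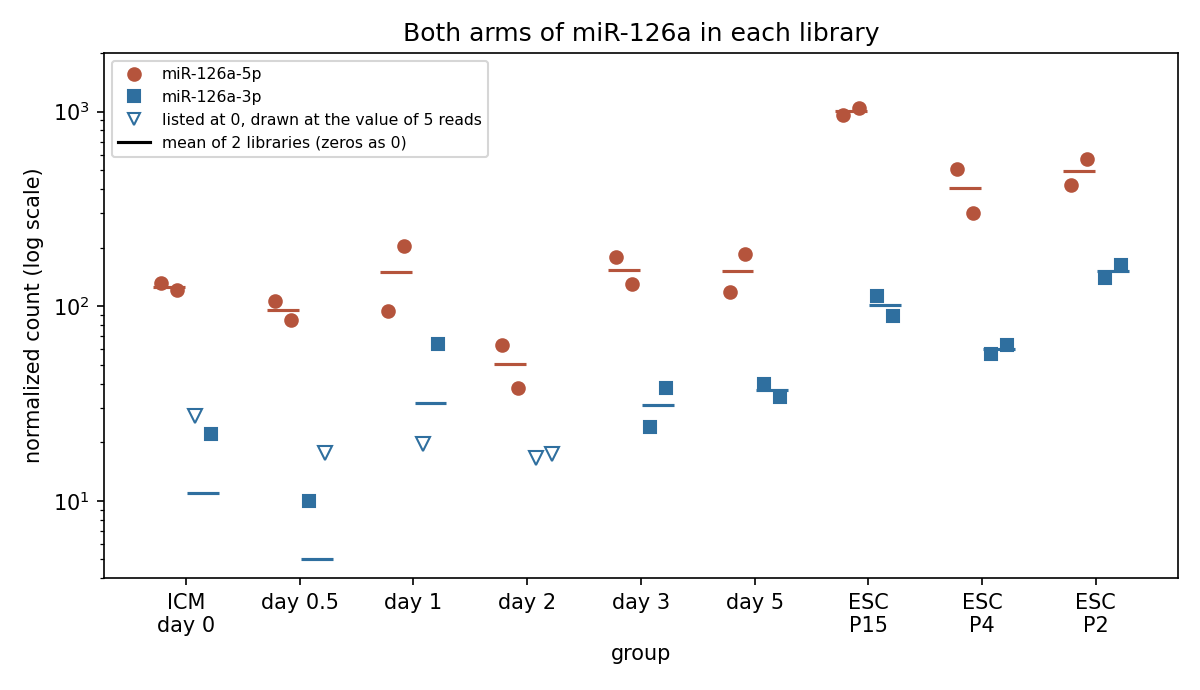
Normalized counts of miR-126a-5p (circles) and miR-126a-3p (squares) in each library on a log axis, by group, with lines at the mean of 2 libraries and open triangles at the value of 5 reads where the 3p arm is listed at 0. The 5p arm is at 303 to 1043 in ESC and at 38 to 205 elsewhere, and the day 2 mean of the 3p arm is 0, off the log axis.

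miR-126a-3p was the scarcer arm and was also highest in ESC on average, with 1 outgrowth library within the ESC range, or 3 with libraries rescaled. It held 113 and 89 normalized counts in P15, 57 and 63 in P4, and 140 and 163 in P2, against 0 and 22 in ICM. The outgrowths held 10 and 0 on day 0.5, 0 and 64 on day 1, 0 and 0 on day 2, 24 and 38 on day 3, and 40 and 34 on day 5. The value of 64 in the second day 1 library, an estimated 32 reads, lay above both P4 libraries, while the other day 1 library listed the arm at 0. All 5 values of 0 came from libraries in which 5 reads are worth 16.5 to 27.2 normalized counts, so a level below that was not detectable there. Both arms passed the low-value filter of 10 in at least 2 libraries, the 5p arm in 18 libraries and the 3p arm in 13.

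The comparison with day 5 sets libraries of like depth against each other, and there both arms were higher in ESC, without overlap as deposited. miR-126a-3p averaged 104.2 ± 42.4 in ESC (SD, n = 6), against 37.0 ± 4.24 on day 5 (SD, n = 2), a ratio of 2.81 and a log2 difference of 1.37. Every ESC library lay above both day 5 libraries, as it did for 6.54% of the miRNAs tested. With libraries rescaled the log2 difference of the 3p arm was 0.93, and P4 replicate 1 lay below day 5 replicate 1, so the groups then overlapped. Against ICM the log2 difference was 4.35 as deposited and 1.80 at the common floor, and against all outgrowths 3.62 and 1.54. The outgrowths minus ICM difference was 0.73 as deposited and 0.25 at the floor, and it was -1.53 without ICM replicate 1 and 2.99 without ICM replicate 2, so 1 library decides its direction. Without ICM replicate 1 the ESC minus ICM difference was 2.09, and without ICM replicate 2 it was 6.61. Ordered by mean, day 2, day 0.5 and ICM were lowest and overlapped. Day 3, day 1 and day 5 followed and overlapped. P4, P15 and P2 stood above them by mean, each apart from its neighbours in that order. Day 1 ran from 0 to 64, so it also overlapped day 2, day 0.5, ICM and P4. With libraries rescaled, ICM and day 3 overlapped, as did P4 and day 5. The pooled SD between replicates of the 3p arm was 1.96 on the log2 scale, which includes the values of 0.

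The 2 arms put the ESC codes in different orders. miR-126a-5p averaged 1002 ± 58.0 in P15, 405.5 ± 145 in P4 and 495.5 ± 104 in P2 (SD, n = 2 each), so both P15 libraries lay above the other 4, as for 20.1% of the miRNAs tested. miR-126a-3p averaged 101 ± 17.0 in P15, 60.0 ± 4.24 in P4 and 151.5 ± 16.3 in P2, with both P2 libraries above and both P4 libraries below the rest. Those patterns were found in 23.2% and 18.7% of the miRNAs tested. The log2 difference P15 minus P2 was 1.03 for the 5p arm and -0.59 for the 3p arm. P15 minus P4 was 1.35 for the 5p arm and 0.73 for the 3p arm. P4 minus P2 was -0.32 for the 5p arm, where the ranges overlap and the value without P4 replicate 2 was 0.05, and -1.32 for the 3p arm. With libraries rescaled, P15 minus P2 was 0.41 for the 5p arm and -1.20 for the 3p arm.

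The 5p arm outnumbered the 3p arm in all 18 libraries. The 3p arm made up 10.5% and 7.86% of both arms in P15, 10.1% and 17.2% in P4, and 24.9% and 22.3% in P2, against 25.2% and 15.5% on day 5. Both P2 libraries thus lay above the P15 and P4 libraries, and the day 5 libraries overlapped those of P2 and P4. In the shallow libraries that list the arm, the share was 15.4% in ICM replicate 2, with an exact 95% binomial interval of 6.34% to 28.9%. It was 8.62% in day 0.5 replicate 1 (3.36% to 18.5%), 23.8% in day 1 replicate 2 (16.9% to 32.0%), and 11.9% (3.98% to 25.6%) and 22.6% (14.6% to 32.4%) on day 3. These intervals, which cover counting error only, overlap one another, and no upper bound reaches an equal share. Where the 3p arm is listed at 0, 5 reads of it would have given a share of 17.2% to 31.4%. Fewer reads would give a smaller share, so the 5p arm was the higher there. The exact share was not measurable at this depth.

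**Figure D2:**
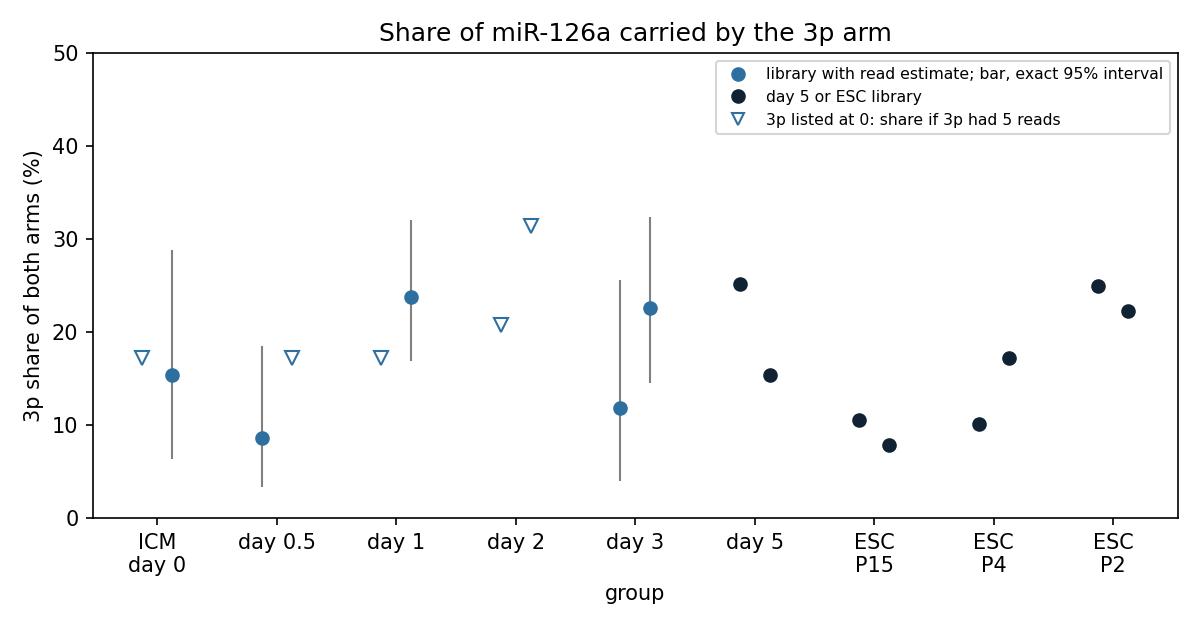
Percent of both miR-126a arms that is miR-126a-3p, by library and group, with exact 95% binomial intervals in the shallow libraries and open triangles for the share that 5 reads would give where the 3p arm is listed at 0. The share is 22.3% and 24.9% in P2 and lies between 7.86% and 17.2% in P15 and P4.

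In log2(3p/5p) with 1 added to each arm, the mean was -3.31 in P15, -2.69 in P4 and -1.69 in P2. The replicates differed by 0.46 in P15, 0.89 in P4 and 0.21 in P2. The difference P15 minus P2 was -1.61, larger than these gaps, while P15 minus P4 was -0.62, less than the gap within P4. P4 minus P2 was -1.0. Other hairpins also shifted their arm balance between the codes. Of the 443 hairpins with both arms in the table, 72 had both arms at 10 or more in every ESC library. Among the other 71, 13 differed as much as miR-126a or more in P15 minus P2, 29 in P15 minus P4 and 26 in P4 minus P2. The median absolute difference over the 72 was 0.75, 0.49 and 0.68 in the same order. Over all ESC libraries the 3p share of miR-126a was 14.1%, against a median of 43.3% over the 72 hairpins, of which 39 had the 5p arm higher and 33 the 3p arm, and 23 had a lower 3p share than miR-126a.

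**Figure D3:**
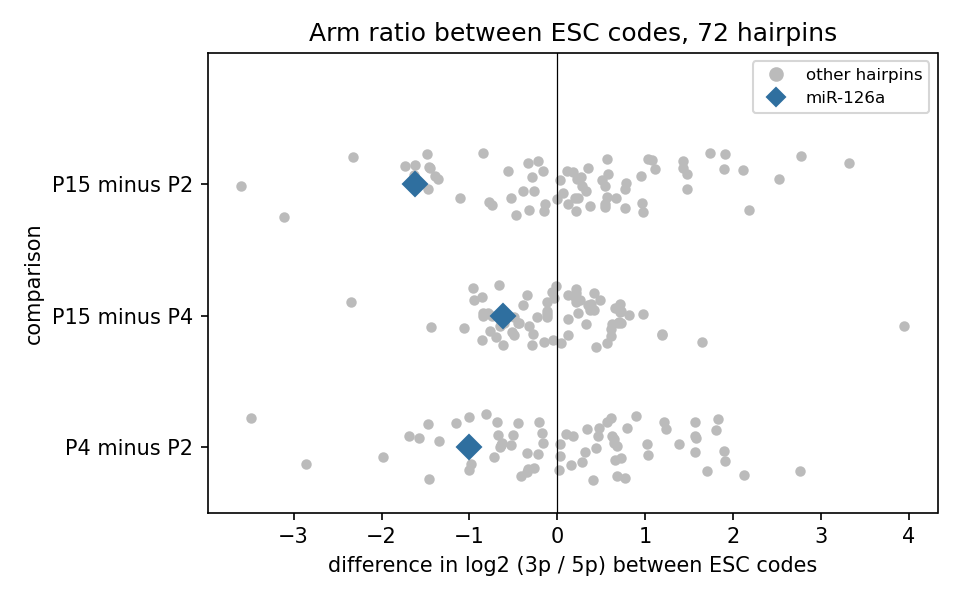
Difference between ESC codes in log2(3p/5p), on the x axis, for 72 hairpins with both arms at 10 or more in all ESC libraries, with one comparison per row. miR-126a (diamonds) is at -1.61 for P15 minus P2, -0.62 for P15 minus P4 and -1.0 for P4 minus P2, within the spread of the other hairpins (grey points).

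Across the 18 libraries the arms followed each other, with Pearson r 0.80 and Spearman rho 0.88 on the log2 scale. The correlation of the arms was 0.71 in the 8 deep libraries and 0.25 in the 6 ESC libraries, where the codes are ordered differently. These and the following correlations are descriptions over libraries that share depth and stage, and carry no test. Among 281 miRNAs with a mean of at least 100, the most like miR-126a-3p were miR-210-3p (r 0.80, rho 0.88), its own 5p arm, miR-425-5p (r 0.79), miR-16-5p (r 0.76) and miR-872-5p (r 0.76). miR-210 is induced by hypoxia through HIF-1α. Its 3p arm held 258 to 1545 normalized counts in ESC, against 0 to 205 in the outgrowths and 0 and 78 in ICM. In the 8 deep libraries miR-210-3p had r 0.89 and fell to rank 17, so the order depends on which libraries enter.

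The miRNAs most like miR-126a-5p were miR-425-5p (r 0.90, rho 0.89), miR-27b-3p (r 0.89), miR-143-3p (r 0.86), miR-146b-5p (r 0.86) and miR-301b-3p (r 0.86). miR-27b-3p had the highest r, 0.98, in the 8 deep libraries. It comes from the miR-23b/27b/24-1 cluster and has known roles in endothelial sprouting. It held 8586 to 18850 normalized counts in ESC, against 2025 to 4797 in the outgrowths and 1142 and 1557 in ICM, with no overlap. miR-425-5p held 705 to 1306 in ESC, against 237 to 602 in the outgrowths and 291 and 343 in ICM, again with no overlap. The mature sequences of the miRNA most like each arm are given with the seed in capitals, since neither seed is that of miR-126a-3p. They lie at chr7:141221407-141221428 on the minus strand for miR-210-3p and chr9:108568789-108568811 on the plus strand for miR-425-5p.
mmu-miR-210-3p: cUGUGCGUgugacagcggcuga
mmu-miR-425-5p: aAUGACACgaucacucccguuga

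**Figure D4:**
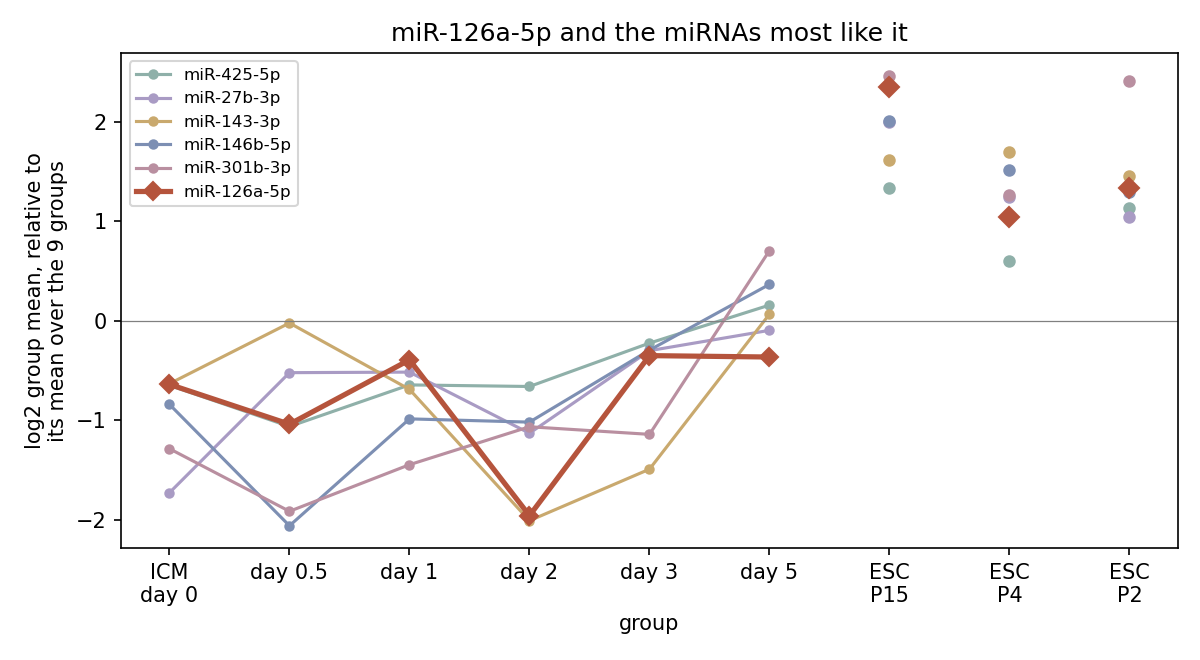
Log2 group mean of miR-126a-5p (diamonds) and of the 5 miRNAs with the highest correlation to it, each relative to its own mean over the 9 groups, with ICM and outgrowth days joined by lines and the ESC codes as separate points. All 6 lie above 0 in each ESC code, and miR-126a-5p and miR-143-3p have their lowest point on day 2.

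Other miRNAs with published roles in endothelial cells or vessel growth were more often higher than lower in ESC than in ICM, with exceptions. Of 43 such miRNAs with a row, 36 were tested with limma, and 19 were higher and 2 lower in ESC than in ICM at an adjusted p below 0.05, against 31.6% higher and 23.7% lower of all 811 miRNAs tested. Their median log2 difference was 1.29, against 0.01 over all. At the common floor 15 of 31 were higher and 3 lower, with a median of 0.48 against 0.00, while 35.9% of all 602 were higher and 32.2% lower. With libraries rescaled, 14 were higher and 4 lower, while 48.2% of the calls over all miRNAs were higher, against 57.1% as deposited. Members of the list are not independent of each other. The 19 higher as deposited include miR-17-5p, miR-18a-5p, miR-19a-3p, both miR-20a arms and miR-92a-1-5p, which share the Mir17hg cluster. They also include both miR-210 arms, miR-92a-3p and miR-24-3p, and miR-23b-3p and miR-27b-3p of the miR-23b/27b/24-1 cluster. miR-222-3p, which represses Kit in human endothelial cells, was listed at 0 in both ICM libraries and at 51 to 196 in ESC, a log2 difference of 1.76 at the floor (limma, adjusted p = 2.02e-05). miR-210-3p differed by 4.00 at the floor (limma, adjusted p = 3.57e-06), but as deposited its call was lost without ICM replicate 1 (log2 difference 3.26, limma adjusted p = 0.0887, from 3.57e-06 to 0.0887 over the alternatives). The 2 lower members were miR-10a-5p, at -3.18, and miR-10b-5p, at -2.97, miRNAs of the Hox clusters.

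Against day 5 fewer of these miRNAs were called. limma called 2 of the 36 higher in ESC, miR-27b-3p (log2 difference 1.53) and miR-130a-3p (0.86), which represses the antiangiogenic genes Gax and Hoxa5 in human endothelial cells. It called 3 lower, miR-322-3p (-1.55), miR-322-5p (-0.95) and miR-92a-3p (-0.62). Of all miRNAs tested 5.92% were higher and 9.0% lower, so that 39.7% of the calls were higher, a share that was 18.5% with libraries rescaled and 54.5% at the common floor. With libraries rescaled 1 of the vascular miRNAs was higher and 4 were lower. At the floor 6 of 31 were higher and 5 lower, where 17.1% of all 602 were higher and 14.3% lower. Between the codes, 6 of the 36 were higher and 0 lower in P15 than in P2, where 9.74% of all were higher and 11.6% lower, with 45.7% of the calls higher and 29.6% of them with libraries rescaled. In P15 minus P4, 7 were higher and 0 lower, where 7.77% of all were higher and 8.75% lower, with 47% of the calls higher and 35.1% rescaled. In P4 minus P2, 4 were higher and 6 lower, where 8.88% of all were higher and 8.88% lower, with 50% of the calls higher and 34.3% rescaled. miR-210-5p was higher in P15 than in P2 by 3.60 and than in P4 by 2.00, and miR-10a-5p was higher in P4 than in P2 by 4.36. miR-10b-5p differed by 2.86 in P15 minus P4, and miR-322-5p by -2.44 in P4 minus P2.

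**Figure D5:**
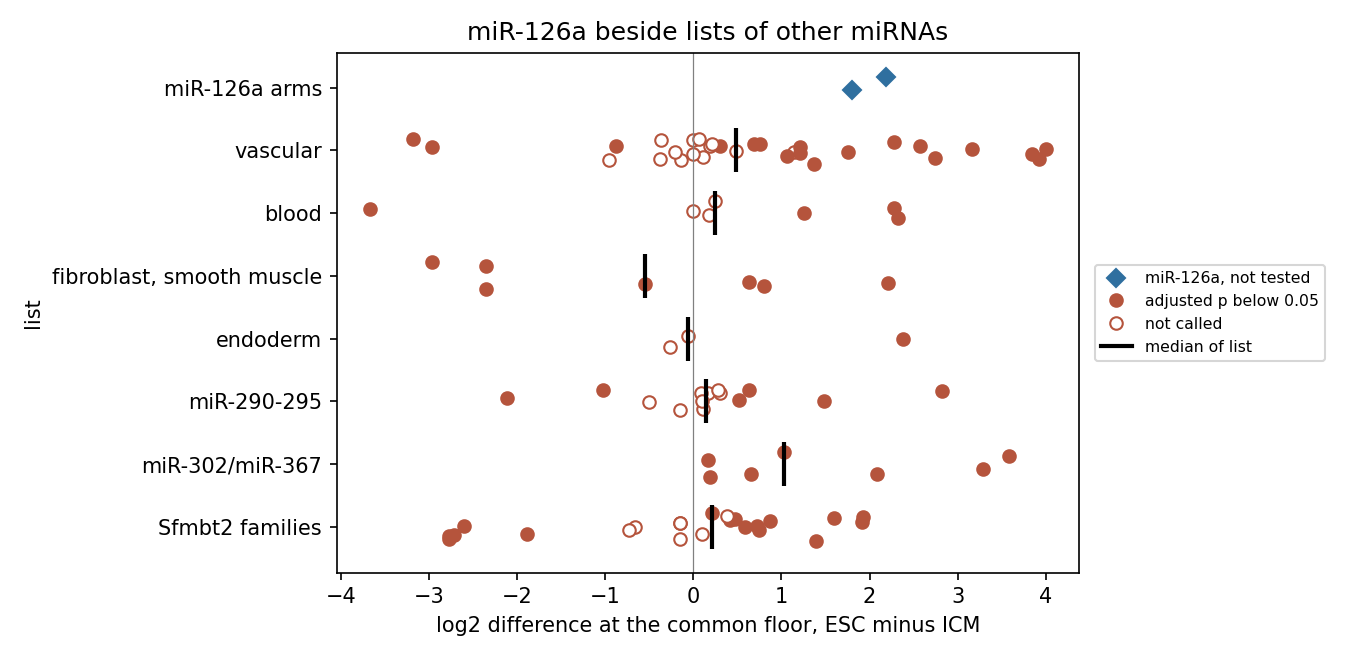
Log2 difference ESC minus ICM at the common floor for both miR-126a arms (diamonds, not tested) and for lists of other miRNAs, filled where limma gave an adjusted p below 0.05, with a black line at the list's median. The arms are at 2.19 and 1.80, and the vascular list runs from -3.18 to 4.00 around a median of 0.48.

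Markers of other cells moved with the same comparison and are given for the libraries in which miR-126a was high. The 10 blood miRNAs summed to 1107 to 2298 normalized counts in ESC, against 528 to 2978 in the outgrowths and 2252 and 2950 in ICM, so their ranges overlap. miR-223-3p of myeloid cells was at 0 in all ESC libraries and miR-451a of red blood cells at 0 to 2, while miR-142-5p, found throughout the blood lineages, held 350 to 1701. The counts of called miRNAs that follow are for ESC minus ICM, in which 31.6% of all 811 were higher and 23.7% lower as deposited, and 35.9% and 32.2% of 602 at the common floor. Of the 7 blood miRNAs tested, 4 were higher in ESC than in ICM and 1 lower, miR-486-5p of red blood cells (log2 difference -3.67). Markers of fibroblasts and smooth muscle summed to 4004 to 6174 in ESC, against 3649 to 22470 in the outgrowths and 8957 and 9951 in ICM. Of 8 tested, 4 were higher, among them miR-143-3p (2.21), and 2 lower, among them miR-10b-5p (-2.97), and the list's median was -0.86. At the common floor 3 of 7 were higher and 4 lower. miR-199a-3p and miR-199b-3p hold identical values in every library and enter these counts as separate miRNAs. The part of blood and fibroblast miRNAs in the miR-126a levels was not tested. The endoderm list had 1 of 3 tested miRNAs higher, miR-375-3p (2.74), and 0 lower. With libraries rescaled 1 was higher and 2 were lower, where 215 of all 811 miRNAs were higher and 231 lower.

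Clusters of pluripotent cells were measured in the same libraries. The miR-290-295 cluster, known from naive mouse pluripotent cells, made up 9.0% to 14.9% of all counts in ESC, against 15.7% to 17.8% in ICM, while both miR-126a arms together made up 0.0404% to 0.0902% in ESC and 0.0218% to 0.0229% in ICM. Of its 14 tested members, 4 were higher and 2 lower in ESC than in ICM (31.6% and 23.7% of all). With libraries rescaled 2 were higher and 5 lower, where 215 of all 811 miRNAs were higher and 231 lower. The miRNAs of the miR-302/miR-367 locus, known from the primed epiblast, summed to 816 to 841 normalized counts in P15, 166 to 167 in P4 and 3658 to 4014 in P2, against 27 to 38 in ICM. Their order over the codes, P4 below P15 below P2, which the sums of the Sfmbt2 families below share, is that of miR-126a-3p and not that of miR-126a-5p. Of 8 tested, 7 were higher in ESC than in ICM and 0 lower, beside the same 31.6% and 23.7% of all. The Sfmbt2 families, which are abundant in trophoblast, summed to 2533 to 8907 normalized counts in ESC, against 8744 and 9579 in ICM. Over the codes they summed to 3321 to 3616 in P15, 2533 to 2541 in P4 and 8511 to 8907 in P2. As shares of all counts, P4 and P15 overlapped. How many of all miRNAs have that order was not counted. Of 28 tested, 12 were higher and 5 lower in ESC than in ICM, beside 31.6% and 23.7% of all. miR-466b-3p and miR-466c-3p hold identical values in every library, as do the 3p arms of miR-297a, miR-297b and miR-297c. These entered the list's counts and sums as separate miRNAs. The list's median was 1.11, or 0.21 at the common floor. Among the lower was miR-466b-3p (log2 difference -2.77) and among the higher miR-467b-5p (6.41, or 1.59 at the floor).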

How the data were processed

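Small RNA of NMRI mouse ICM, outgrowths and ESC was sequenced in 18 libraries from TruSeq Small RNA kits, per the labels' protocols. The deposited table gives scores: counts that the authors had normalized and rounded to whole numbers. The submitters' processing notes name cutadapt, DESeq2 1.30.0 and mm10; for the aligner, the counting and the step behind the values, no source used here gives a name. Since the values are not raw counts, no count test was run.

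The members and lists were chosen with earlier results of these data known. ESC minus day 5, the correlations in 8 libraries and those to the 5p arm were added after the values were seen. Groups follow the sample descriptions. No label says whether the replicates are separate embryos or cultures, so p-values measure only the spread between these libraries. Reads per library were estimated from the spacing of values below 1000, of which 99.5% to 100% fell on a step of 1.73 to 5.44 within 0.5; a value of 5 reads carries a Poisson error of 44.7%. The common floor of 27.2 is 5 reads in the shallowest library.

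For the background and the lists, limma 3.58.1 in R 4.3.3 (trend, robust, 9 groups) was fitted to log2(normalized count + 1) of the 811 miRNAs at 10 or more in at least 2 libraries (602 with values raised to the floor), with Benjamini-Hochberg adjustment and a threshold of 0.05; its script was tested on simulated data. Intervals and correlations were computed with scipy 1.17.1 in Python 3.11.15. Alternatives were a pseudocount of 8, no filter, libraries rescaled to the same total, the common floor, the replicate number as a block, and each library left out. Names were drawn from both arms, the 2 called miRNAs per list with the largest change and a mean of at least 100, and the 5 most like each arm. Not every miRNA that this rule picks is named in the text. Others were chosen after their values were seen: miR-27b-3p, miR-130a-3p, miR-10a-5p, miR-10b-5p, miR-223-3p, miR-451a and the other members named from counts of 5 or fewer. So were those named for a shared hairpin or cluster or for identical values. Of the table's miRNAs, 1166 had a RefSeq sequence.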

Additional observations from a re-analysis of the deposited data

How the results depend on the processing

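The direction of both arms in ESC minus ICM, ESC minus outgrowths and ESC minus day 5 was positive under every alternative run. At the common floor the difference of miR-126a-3p was 1.80 for ESC minus ICM and 1.54 for ESC minus outgrowths, and limma called 31.4% of 602 miRNAs in ESC minus day 5, against 14.9% of 811 as deposited. With libraries rescaled, miR-126a-5p differed by 1.48 in ESC minus ICM, 1.97 in ESC minus outgrowths, 1.5 in ESC minus day 5 and 0.41 in P15 minus P2. Leaving out each library in turn gave 2.09 to 6.61 for miR-126a-3p in ESC minus ICM and -1.53 to 2.99 in outgrowths minus ICM. It gave 9.62% to 14.3% of miRNAs called in P4 minus P2, against 17.8% with all, with a change of over 1.5 times without P2 replicate 1 (9.62%), P2 replicate 2 (10.6%) or P4 replicate 1 (10.9%). In P15 minus P2 it gave 14.1%, without P2 replicate 1, to 15.0%, against 21.3%. No label says whether the replicate numbers pair the libraries. Deviations of same-numbered libraries correlated by -0.36 to 0.24 over 36 group pairs, and 3 of 9 groups matched best with their own number. Unequal depth within groups enters these deviations, so they do not decide whether libraries are paired. With a replicate block limma called 54.7% of miRNAs in ESC minus ICM and 14.3% in ESC minus day 5, within 1.5 times the shares without it, as in the other comparisons. Of 1103 values of list members picked by the rule, 132 lost their call, and of 1274 list counts 152 moved by over 1.5 times. Depth limits the 3p arm before day 5.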
